A study of Mus musculus with 6 samples.

Results

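Selenbp1 and Selenbp2 are the mouse genes for selenium-binding proteins 1 and 2, and they make up 2 of the 24034 genes in a liver expression table of Lncenc1 mutant and wild type mice. They were picked by gene name, with their difference between the genotypes already known, so what follows on that difference describes these libraries and carries no test. RNA sequencing was done on whole liver from C57BL/6 mice of 25 weeks. The HO group (3 libraries) carries the genotype label lncenc13A/3A, homozygous for an altered allele of Lncenc1, a gene for a long non-coding RNA, and the WT group (3 libraries) carries lncenc1wt/wt. The submitters call the HO animals knockouts. How the allele was altered is not stated in the labels. Lncenc1 RNA itself was not analysed here, and genotype is known from the labels alone. No substrain of C57BL/6 is given, so a difference of background between the groups cannot be told apart from the allele. Whether each library is a different animal is not stated, so p-values here measure only library-to-library spread, which may be technical. Expression is in FPKM, fragments per kilobase of transcript in a library of fixed size, so levels of different genes can be compared.

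Selenium-binding proteins are cytosolic proteins that bind selenium but, unlike selenoproteins, do not contain selenocysteine. Human SELENBP1 is a methanethiol oxidase: it breaks down methanethiol, a sulfur gas made by gut bacteria and in methionine metabolism, into hydrogen sulfide, hydrogen peroxide and formaldehyde. Mouse Selenbp2 is a close copy of Selenbp1, was first described as a liver protein that binds the drug acetaminophen, and is known for higher expression in the livers of males than of females. Its protein has also been reported to fall in mouse liver under peroxisome proliferators, drugs that activate the nuclear receptor PPAR alpha.

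Both genes lie on the plus strand of chromosome 3 (mm10, GENCODE release M21 positions). Selenbp2 runs from 94693556 to 94704413 and Selenbp1 from 94933056 to 94944758, with 229 kb between them, and no other gene of the table overlaps either. Over the 1712 aligned bases of their main transcripts the copies are identical at 98.5%, with 25 mismatches. Of the windows of 50 bases in the main Selenbp2 transcript, 52.0% occur unchanged in a Selenbp1 transcript. At 100 bases that share is 21.2%, and at 150 bases 6.94%. The sources used here do not give the read length. Reads that fall wholly within a shared window cannot be assigned to a copy by their sequence, so each copy's own value is uncertain to that extent, while the sum of the copies is unaffected by which copy got such a read, provided the read was counted at all. Whether reads that match both copies were counted is not stated. No other gene of the annotation shares a window of 30 bases with either main transcript.

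The copies also share most of the sequence just before their starts. The stretches shown here, from the RefSeq promoter table (build GRCm38.p6), end at the base before each gene's annotated start and are printed because the genes so alike at this place stood so far apart in level. Capitals mark bases that have no identical partner in the other copy. The Selenbp2 stretch is chr3:94693323-94693555 (plus strand, 233 bases) and the Selenbp1 stretch is chr3:94932833-94933055 (plus strand, 223 bases).
Selenbp2: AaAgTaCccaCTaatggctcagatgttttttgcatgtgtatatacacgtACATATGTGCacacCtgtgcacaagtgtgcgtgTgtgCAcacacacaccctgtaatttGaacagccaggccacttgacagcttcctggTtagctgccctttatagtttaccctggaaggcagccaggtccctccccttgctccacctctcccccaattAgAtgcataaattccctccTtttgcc
Selenbp1: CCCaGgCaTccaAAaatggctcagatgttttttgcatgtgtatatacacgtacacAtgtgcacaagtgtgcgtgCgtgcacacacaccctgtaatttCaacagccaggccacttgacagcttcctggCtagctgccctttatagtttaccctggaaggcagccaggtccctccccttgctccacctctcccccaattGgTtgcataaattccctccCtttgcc
Of 221 aligned bases, 208 were identical (94.1%), and the longest unbroken identical run was 69 bases. Selenbp2 held 12 bases with no partner in Selenbp1. In the 250 bases before the RefSeq start, neither copy held TTCNNNGAA, the core bound by STAT5 factors (both strands, found in 7.02% of 32851 such promoter windows), AGGTCA, the half-site of many nuclear receptors including PPAR alpha (14.0%), or TGACNNNGC, the core of antioxidant response elements (10.2%). Each copy held TATAAA once, counting both strands (12.4% of windows).

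The libraries were alike in overall scale. Summed FPKM was 495570 to 518218 in HO and 499151 to 506986 in WT. Depth, inferred from steps between the lowest values, was about 19900000 to 24600000 read equivalents in HO and 19100000 to 23500000 in WT. All 6 libraries had the pattern of a male, with Xist between 0.00453 and 0.0522 FPKM and Ddx3y between 16.7 and 19.97 FPKM. Of the 13250 genes that averaged at least 0.5 FPKM, 151 passed a Benjamini-Hochberg adjusted p of 0.05 in limma, which is 1.14%. Unadjusted, 2850 of the 13250 had a limma p under 0.05. Of the 151 that passed, 43 were higher in HO and 108 lower. The split was 66 higher and 66 lower with median-of-ratios scaling and 56 higher and 72 lower with quantile normalization. The median log2 change of all tested genes was -0.09, and with median-of-ratios scaling it was -0.01. List medians near 0 move with it: that of the selenoproteins was 0.03 with median-of-ratios scaling, that of the methionine cycle list 0.09 and that of the growth hormone list 0.09. The number of genes past the threshold was 198, 35 and 15 when HO replicate 1, 2 or 3 was left out, and 9, 6 and 262 when WT replicate 1, 2 or 3 was left out.

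Selenbp2 was many times higher in HO livers than in WT livers. Its FPKM was 1031, 681.6 and 696.9 in HO replicates 1, 2 and 3, against 43.0, 40.6 and 117.3 in WT replicates 1, 2 and 3. The groups lay far apart: the lowest HO library was 5.81 times the highest WT library. Within WT, replicate 3 stood above the other libraries, and within HO, replicate 1 did. The means were 803.2 ± 197.5 FPKM in HO and 67.0 ± 43.6 FPKM in WT (SD, n = 3 each). On the log2(FPKM + 0.5) scale the difference was 3.73 ± 0.40 (SE), number 4 in descending order among the 13250 tested genes. Without WT replicate 3 it was 4.22 ± 0.19. In order of abundance Selenbp2 ranked 65, 92 and 93 among all 24034 genes in the HO libraries and 1399, 1468 and 581 in the WT libraries. It took 0.135% to 0.199% of all FPKM in HO and 0.00802% to 0.0235% in WT. Its values correspond to about 35703 to 46670 read equivalents per library in HO and 1868 to 5847 in WT, so counting error was small beside the spread between libraries.

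Selenbp1, by contrast with its copy, was slightly lower in HO livers. Its FPKM was 148.7, 93.0 and 130.4 in HO replicates 1, 2 and 3, against 158.5, 177.1 and 151.5 in WT replicates 1, 2 and 3. The groups did not overlap, but the highest HO library and the lowest WT library were close together. Means were 124.0 ± 28.4 FPKM in HO and 162.4 ± 13.2 FPKM in WT (SD, n = 3 each), a log2 difference of -0.41 ± 0.17 (SE). Without HO replicate 2, the lowest library, the difference was -0.22 ± 0.11. With median-of-ratios scaling the groups overlapped, at 97.0 to 153.5 in HO and 145.3 to 171.5 in WT, and the difference was -0.31. Selenbp1 ranked 437, 673 and 481 by abundance in HO and 422, 371 and 436 in WT. In 12.8% of tested genes the log2 change lay below that of Selenbp1. As the background for these patterns, all HO values lay above all WT values in 6.42% of tested genes and below them in 21.4%. Since whole liver was measured, fewer cells that express a gene and less of its RNA per cell cannot be told apart.

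**Figure D1:**
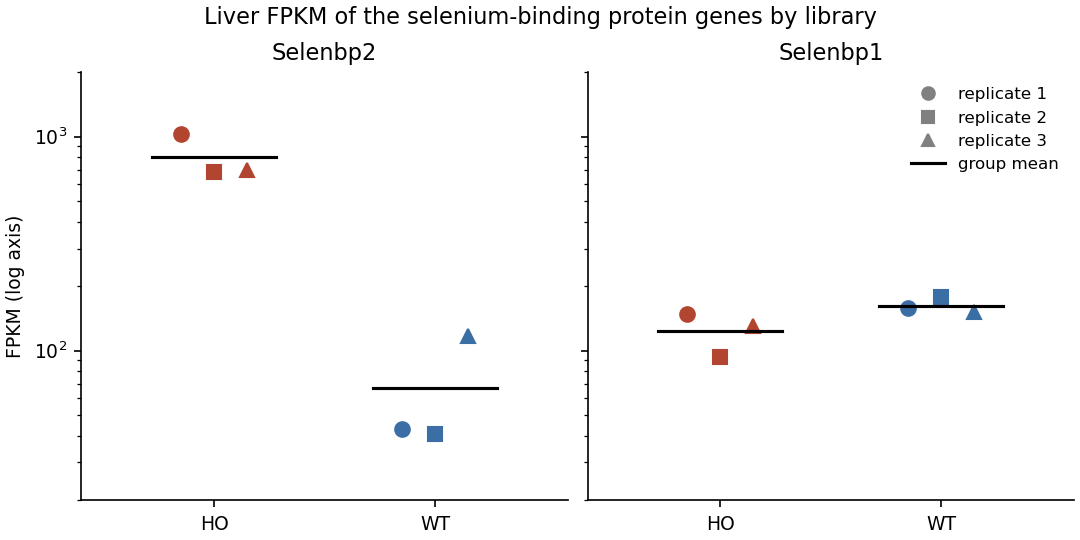
FPKM (log axis) of Selenbp2 and Selenbp1 in each library, with HO left of WT, a symbol for each replicate number and a line at each group mean. Selenbp2 lies between 681.6 and 1031 FPKM in HO and between 40.6 and 117.3 FPKM in WT, while Selenbp1 lies between 93.0 and 148.7 FPKM in HO and between 151.5 and 177.1 FPKM in WT.

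The summed output of the copies was higher in every HO library than in any WT library. The sum was 1180, 774.7 and 827.3 FPKM in HO replicates 1, 2 and 3, against 201.5, 217.7 and 268.8 FPKM in WT replicates 1, 2 and 3. The mean sum was 927.2 ± 220.2 FPKM in HO and 229.3 ± 35.1 FPKM in WT (SD, n = 3 each), 4.04 times as high in HO. The log2 difference of the sum was 1.998 ± 0.226 (SE). HO and WT means differed by 736.2 FPKM for Selenbp2 and by -38.3 FPKM for Selenbp1, which together gave 697.9 FPKM for the sum.

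The copy that made up most of this output was Selenbp2 in HO and Selenbp1 in WT. Selenbp2 supplied 87.4%, 88.0% and 84.2% of the sum in HO replicates 1, 2 and 3, against 21.4%, 18.6% and 43.6% in WT replicates 1, 2 and 3. The ratio of Selenbp2 to Selenbp1 was 6.94, 7.33 and 5.34 in the HO libraries and 0.272, 0.229 and 0.774 in the WT libraries. Every HO ratio was above 1 and every WT ratio below it. The log2 ratio differed by 4.14 ± 0.56 (SE), and by 4.68 ± 0.20 without WT replicate 3. Scaling each library by a single factor leaves the FPKM ratio as it is.

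The copies were also compared within each group, as a description. After each value was centred on its group mean, Pearson's r between the copies was 0.04 over the 6 libraries, and it was -0.66 without centring. HO replicate 1 had the most of either copy among HO libraries. In WT, replicate 3 had the most Selenbp2 and the least Selenbp1.

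**Figure D2:**
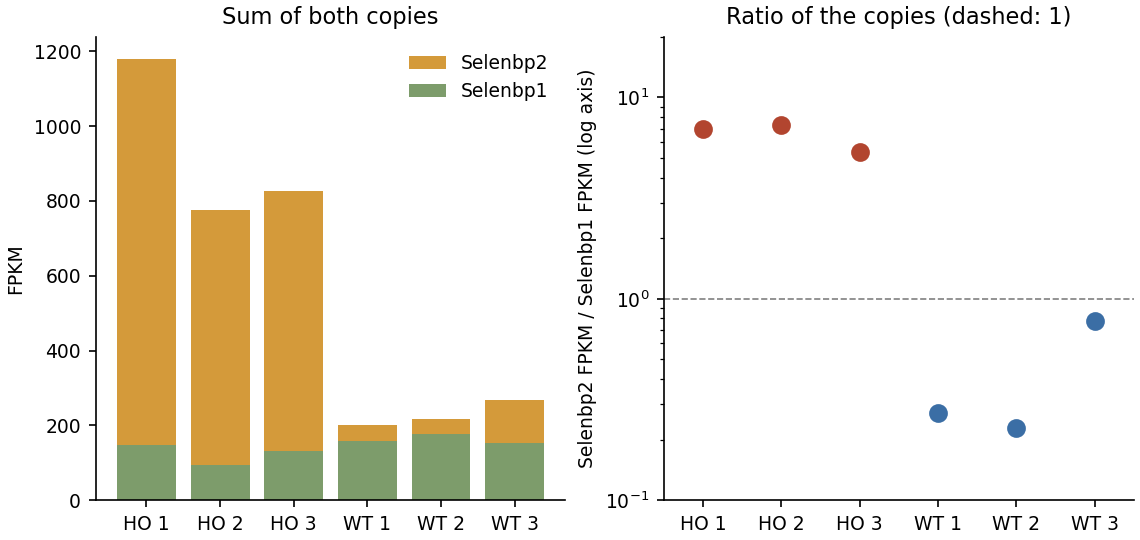
Left, FPKM of Selenbp2 stacked on Selenbp1 for each HO and WT library. Right, the ratio of Selenbp2 to Selenbp1 FPKM (log axis, dashed line at 1): HO libraries lie at 5.34 to 7.33 and WT libraries at 0.229 to 0.774.

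No gene around the copies passed the threshold, which 1.14% of all tested genes passed. Of 43 genes in the table that start within 300 kb of either copy, 28 were abundant enough to test. None of the 28 passed (limma with Benjamini-Hochberg adjustment), which at that share does not set the locus apart. Unadjusted, 3 of the 28 had a limma p under 0.05, against 2850 of all 13250. The median log2 change of the 28 was -0.09, the same as that of all genes. Of 4 genes between the copies, the pseudogene Gm15264 was listed at 0 in every library and 3 were tested. These are Cgn, which encodes the tight junction protein cingulin, Pogz, a zinc finger gene, and Psmb4, a proteasome subunit, with log2 changes of -0.26, 0.15 and -0.06. The nearest gene of the table upstream, BC021767, is annotated as a transcribed pseudogene on the opposite strand and has its start at -22.9 kb from that of Selenbp2. It had 2.61, 3.50 and 2.08 FPKM in HO replicates 1, 2 and 3, against 0.577, 0.372 and 1.47 FPKM in WT replicates 1, 2 and 3. The groups did not overlap, and WT replicate 3 was again the highest WT library. The log2 difference was 1.37 ± 0.32 (limma adjusted p = 0.0828).

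**Figure D3:**
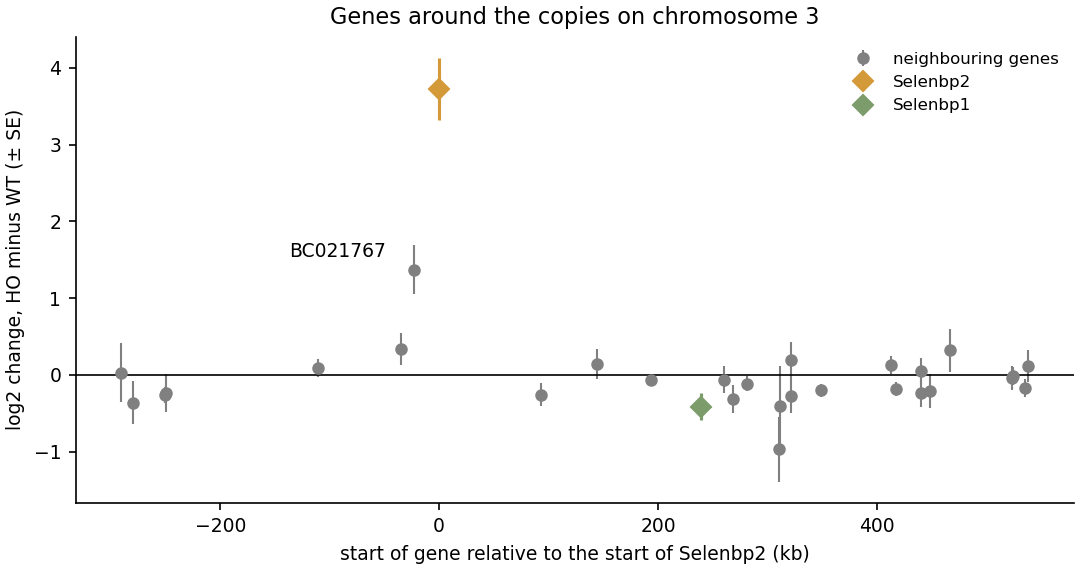
Log2 change (HO minus WT, ± SE) of Selenbp2, Selenbp1 and the 28 tested genes around them, by distance of each gene's start from the start of Selenbp2 in kb. Selenbp2 lies at 3.73, BC021767 at 1.37 and the other neighbours and Selenbp1 within 1 of 0.

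Other liver genes with higher expression in males were set beside Selenbp2, from a list that did not count it. Of 18 tested, 4 rose in HO (Serpina1e, Cyp7b1, Ugt2b38 and C8b) and none fell, against 0.325% of all tested genes that rose. The median log2 change of the list was 0.92, against -0.09 for all genes, and 17 of the 18 had a positive change. The list was chosen with results of these data known and is no independent evidence of its direction.

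Serpina1e, which encodes a form of the protease inhibitor alpha-1 antitrypsin, had 7267, 7706 and 6424 FPKM in HO replicates 1, 2 and 3, against 744.4, 1046 and 2006 FPKM in WT replicates 1, 2 and 3. Its log2 change was 2.62 ± 0.33 (limma adjusted p = 0.0284). Cyp7b1, an oxysterol hydroxylase of the alternative route of bile acid synthesis, had 302.0, 306.9 and 190.0 FPKM in HO against 55.0, 53.9 and 96.0 FPKM in WT, with a log2 change of 1.97 ± 0.27 (limma adjusted p = 0.0329). The glucuronosyltransferase Ugt2b38 changed by 1.70 ± 0.21 and the complement gene C8b by 1.62 ± 0.27 (limma adjusted p = 0.0284 and 0.0484). C8b no longer passed at a pseudocount of 0.1 (limma adjusted p = 0.0504) or for eBayes without trend (limma adjusted p = 0.0674), which left 3 genes of the list that rose.

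The spread of Selenbp2 within WT was shared by many of these genes. WT replicate 3 was the highest WT library for 14 of the 18, as it was for Selenbp2, against 38.2% of all tested genes. Hsd3b5, a ketosteroid reductase gene expressed mainly in male liver, had 130.3, 91.8 and 68.4 FPKM in HO and 5.52, 8.28 and 64.8 FPKM in WT replicates 1, 2 and 3. WT replicate 3 came close to the lowest HO library for this gene, and it did not pass (limma adjusted p = 0.138). HO replicate 1, where Selenbp2 was highest, was the highest HO library for 12 of the 18, against 37.5% of all tested genes. This was not particular to the male-biased list. Among lists described below, it held for 14 of 15 genes that make or remove hydrogen peroxide or aldehydes and for 14 of 20 selenoprotein genes. It held for only 3 of 20 genes of PPAR alpha and its targets. Elovl3, a fatty acid elongase gene, overlapped between the groups, with 163.6, 86.6 and 60.2 FPKM in HO and 130.0, 126.5 and 53.0 FPKM in WT. Serpina1e and Ugt2b38 have near-identical paralogs that may take or give reads, which makes their values uncertain. The number of genes in the list that rose was 2 without HO replicate 1, 10 without WT replicate 3, and 0 when HO replicate 2, HO replicate 3, WT replicate 1 or WT replicate 2 was left out.

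**Figure D4:**
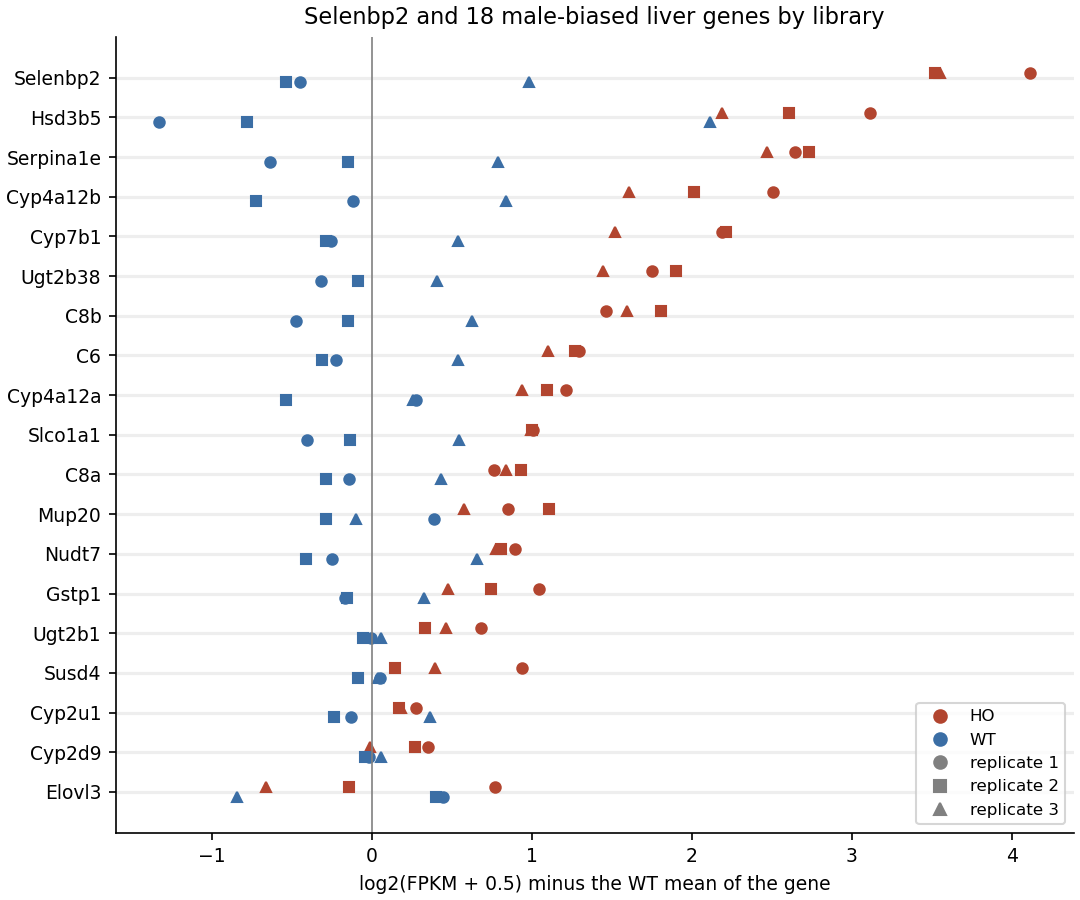
Log2(FPKM + 0.5) in each library, minus the WT mean of the gene, for Selenbp2 and 18 male-biased liver genes, with HO in red above WT in blue and a symbol for each replicate number. WT replicate 3 (blue triangle) lies to the right of the other WT libraries for Selenbp2 and for 14 of the 18 genes.

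Genes with higher expression in female liver and the regulators of sex bias were set beside Selenbp2 as well. Of 21 female-biased genes listed, 6 were abundant enough to test. Of these 3 fell in HO (Cyp2b9, Abcd2 and Cyp2a4), against 0.815% of all tested genes, and none rose. This list too was chosen with results of these data known. Cyp2a4 and Hao2 reached the filter only through their WT values. Cyp2c40 reached this filter, and one of 1 FPKM, only through its HO values. The counts in either direction therefore depend on the filter and are no measure of the list. At a filter of 1 FPKM, 4 were tested, of which 2 fell and 1 rose. With no filter, none of the 18 genes in the table passed in limma, and their median log2 change was -0.13. Cyp2b9, a P450 enzyme, had 2.03, 1.28 and 1.26 FPKM in HO replicates 1, 2 and 3, against 84.3, 54.0 and 15.3 FPKM in WT replicates 1, 2 and 3, with a log2 change of -4.39 ± 0.56 (limma adjusted p = 0.0284). Here WT replicate 3 was the lowest WT library. Abcd2, a peroxisomal transporter of very long-chain fatty acids, changed by -2.06 ± 0.27 (limma adjusted p = 0.0284). The P450 gene Cyp2a4 had 0.0574, 0 and 0 FPKM in HO and 1.59, 1.71 and 0.987 FPKM in WT and changed by -1.87 ± 0.20 (limma adjusted p = 0.0212), and the female-biased Cyp2c40 had 1.96 ± 0.66 FPKM in HO and 0.338 ± 0.188 FPKM in WT (SD, n = 3 each, limma adjusted p = 0.0503). Cyp2c40, against the direction of the other 5, rose in HO at a filter of 1 FPKM, with median-of-ratios or quantile scaling, with robust eBayes, with array weights and when HO replicate 1 or WT replicate 3 was left out. Leaving out WT replicate 3, HO replicate 1 or HO replicate 3 gave 4, 3 or 1 female-biased genes that fell, and none fell when HO replicate 2, WT replicate 1 or WT replicate 2 was left out. Of 14 tested genes of growth hormone signalling and sex-bias regulation, none passed (limma with Benjamini-Hochberg adjustment), against 1.14% of all tested genes. A count of 0 does not set so short a list apart from that share. Unadjusted, 3 of the 14 had a limma p under 0.05, against 2850 of all 13250. The median log2 change of the 14 was -0.00, and 1 fell without WT replicate 3. Prlr, the prolactin receptor, was at 13.0 ± 0.91 FPKM in HO and 25.5 ± 5.64 FPKM in WT (SD, n = 3 each, limma adjusted p = 0.0571).

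Of 20 tested genes of PPAR alpha and its targets, 2 fell in HO (Acaa1b and Acot2), against 0.815% of all tested genes, and none rose. The median log2 change was -0.44, against -0.09 for all genes, and 15 of the 20 were negative. In 11 of the 20 all HO values lay below all WT values, against 21.4% of all tested genes. This list was also chosen with results of these data known and is no independent evidence of its direction. Acaa1b, a peroxisomal thiolase, had 465.0, 402.8 and 517.2 FPKM in HO replicates 1, 2 and 3, against 1114, 1176 and 957.9 FPKM in WT replicates 1, 2 and 3, changing by -1.23 ± 0.13 (limma adjusted p = 0.0211). The mitochondrial acyl-CoA thioesterase gene Acot2 changed by -1.06 ± 0.15 (limma adjusted p = 0.0339). Ppara itself was at 41.4, 45.0 and 50.8 FPKM in HO and 35.9, 36.1 and 47.8 FPKM in WT, with overlapping groups. Acaa1b did not pass without WT replicate 1 or without WT replicate 2, and of the libraries left out in turn Acot2 passed only without WT replicate 3. In that case 4 genes of the list fell.

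Methanethiol oxidase works among enzymes that make or remove sulfur gases. None of 12 tested genes of sulfur gas and methanethiol handling passed (limma with Benjamini-Hochberg adjustment), against 1.14% of all tested genes. A count of 0 does not set so short a list apart from that share. Unadjusted, 5 of the 12 had a limma p under 0.05, against 2850 of all 13250. The median log2 change was -0.20, against -0.09 for all genes, with 10 of 12 negative. With median-of-ratios scaling the median was -0.10, against -0.01 for all genes. Tstd1, a thiosulfate sulfurtransferase, had 11.0, 11.9 and 12.3 FPKM in HO replicates 1, 2 and 3, against 16.8, 17.4 and 16.5 FPKM in WT replicates 1, 2 and 3 (limma adjusted p = 0.0515). At a filter of 1 FPKM Tstd1 fell (limma adjusted p = 0.0485), and with array weights 2 genes of the list fell. Mettl7b, a thiol methyltransferase in human, was at 394.0 ± 6.40 FPKM in HO and 510.8 ± 22.5 FPKM in WT (SD, n = 3 each, limma adjusted p = 0.0727). Sqor, which oxidises hydrogen sulfide in mitochondria, changed by -0.17 ± 0.08 and Cth, which makes hydrogen sulfide from cysteine, by -0.15 ± 0.21 (limma adjusted p = 0.276 and 0.722).

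Of 15 genes of the methionine cycle and of cysteine and taurine synthesis, 1 rose, against 0.325% of all tested genes, and none fell, with a median log2 change of -0.01. The gene was Nnmt, which methylates nicotinamide with a methyl group from S-adenosylmethionine. It had 118.4, 163.9 and 191.7 FPKM in HO replicates 1, 2 and 3, against 77.7, 72.2 and 72.6 FPKM in WT replicates 1, 2 and 3. The log2 difference was 1.06 ± 0.17 (limma adjusted p = 0.0454). Of the libraries left out in turn, its call held only without HO replicate 1. It was also lost at a pseudocount of 0.1 (limma adjusted p = 0.0504) and for eBayes without trend (limma adjusted p = 0.0674). The other products of the oxidase are hydrogen peroxide and an aldehyde. Among 15 genes that make or remove hydrogen peroxide or aldehydes, the median log2 change was -0.25, against -0.09 for all genes. Of these 15, none rose and 1 fell, against 0.815% of all tested genes. This was Adh1, an alcohol dehydrogenase, at 908.7, 868.1 and 849.6 FPKM in HO against 1287, 1280 and 1372 FPKM in WT, a log2 difference of -0.58 ± 0.08 (limma adjusted p = 0.0339). Adh1 no longer passed with median-of-ratios scaling, for eBayes without trend and when HO replicate 2, HO replicate 3, WT replicate 1 or WT replicate 2 was left out.

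Selenoproteins, which carry selenium as selenocysteine, form a separate group. None of 20 tested selenoprotein genes passed (limma with Benjamini-Hochberg adjustment), against 1.14% of all tested genes. A count of 0 does not set so short a list apart from that share. Unadjusted, 4 of the 20 had a limma p under 0.05, against 2850 of all 13250. The median log2 change of the 20 was -0.07. Gpx4, which reduces lipid peroxides, had 122.6, 110.2 and 107.6 FPKM in HO replicates 1, 2 and 3, against 196.3, 176.2 and 153.0 FPKM in WT replicates 1, 2 and 3 (log2 change -0.62 ± 0.11, limma adjusted p = 0.0552). The mitochondrial thioredoxin reductase gene Txnrd2 changed by -0.50 ± 0.10 (limma adjusted p = 0.0703). Selenop, the plasma carrier that takes selenium from liver to other organs, had 2549, 2798 and 2503 FPKM in HO and 2980, 2691 and 2680 FPKM in WT, with overlapping groups. Gpx1, chosen after its values were seen, was at 149.5, 128.4 and 108.3 FPKM in HO and at 163.7, 153.0 and 881.6 FPKM in WT, with WT replicate 3 far above every other library. Without WT replicate 3, 1 selenoprotein gene fell. None of 12 tested genes of selenium uptake and selenocysteine synthesis passed (limma with Benjamini-Hochberg adjustment), which again does not set the list apart. Unadjusted, 2 of these 12 had a limma p under 0.05. Their list had a median of -0.09, and 1 gene of it fell without WT replicate 3. Eefsec, the elongation factor for selenocysteine, changed by -0.70 ± 0.18 and Kyat1, a lyase that acts on selenium and sulfur conjugates, by 0.34 ± 0.10 (limma adjusted p = 0.0947 and 0.121).

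**Figure D5:**
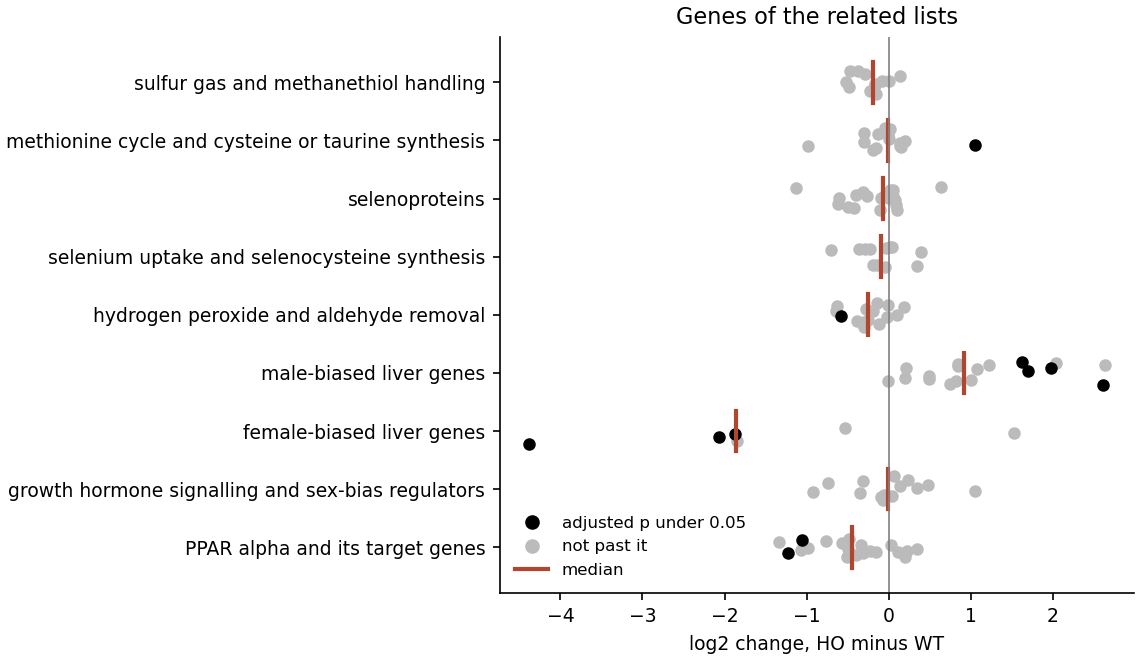
Log2 change (HO minus WT) of each tested gene in 9 lists related to the selenium-binding proteins, with genes at a limma adjusted p under 0.05 in black, the rest in grey and a red bar at each list's median. The male-biased list has a median of 0.92 and the selenoproteins -0.07. The 6 female-biased genes shown are those that reached the filter, some only through WT and Cyp2c40 only through HO.

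The genes whose pattern over the 6 libraries was most like that of Selenbp2, by Pearson's r of log2(FPKM + 0.5) among the 11569 genes averaging at least 1 FPKM, were Acsm1, Serpind1, Gm30262, Srd5a1 and C4a, with r of 0.993 to 0.995. An r of 0.95 or more was reached by 0.847% of genes. The measure takes no account of the size of a change. Acsm1, a mitochondrial acyl-CoA synthetase gene, had 165.6, 162.6 and 163.3 FPKM in HO and 149.5, 149.9 and 155.9 FPKM in WT, while Srd5a1, which encodes steroid 5-alpha-reductase, had 44.5, 37.2 and 36.9 FPKM in HO and 20.3, 20.2 and 26.4 FPKM in WT. The genes most like Selenbp1 were Ndufs8, Atp5a1, Gstm7, Exoc4 and Abhd11 (r of 0.989 to 0.996). Ndufs8, a subunit of respiratory complex I, had 45.9, 27.8 and 41.0 FPKM in HO and 48.4, 53.1 and 47.6 FPKM in WT, with the low value in HO replicate 2 that Selenbp1 had. With values centred on the group means, the closest to Selenbp2 were Atad1, Nlrc5, Angel2, Ift46 and Lrp1, and the closest to Selenbp1 were Rpe, Rrp36, Mks1, Cdcp1 and Eng.

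Summed levels of marker genes were set side by side for each cell type. The 6 hepatocyte markers summed to 41773 to 46419 FPKM in HO and 46256 to 49705 FPKM in WT, with a narrow overlap, and of these Cps1, a urea cycle enzyme, rose in HO with a log2 difference of 0.86 ± 0.13 (limma adjusted p = 0.0422). No tested marker of another cell type passed, against 1.14% of all tested genes. Sums of the stellate, cholangiocyte, erythroid and adipocyte markers did not overlap between the groups and were lower in HO. As the background, all HO values lay below all WT values in 21.4% of tested genes. The 6 stellate and fibroblast markers summed to 66.5 to 84.0 FPKM in HO and 95.6 to 112.0 FPKM in WT. Sums were 20.3 to 23.2 FPKM in HO and 25.0 to 28.0 FPKM in WT for 6 cholangiocyte markers, and 301.6 to 515.8 FPKM in HO and 601.3 to 618.5 FPKM in WT for 4 erythroid markers. The 3 adipocyte markers in the table summed to 0.986 to 12.2 FPKM in HO and 44.0 to 56.2 FPKM in WT, with Adipoq and Plin1 below 0.1 in every library. The adipocyte sum thus came mainly from 1 gene and is a weak measure of adipocytes. Kupffer cell markers (55.3 to 71.7 FPKM in HO, 67.2 to 110.1 FPKM in WT), endothelial markers (40.1 to 45.2 FPKM in HO, 41.8 to 53.1 FPKM in WT) and markers of lymphocytes and neutrophils (1.78 to 5.83 FPKM in HO, 3.21 to 4.06 FPKM in WT) overlapped between the groups. The muscle gene Myh4 was listed at 0 in every library, and the neutrophil gene Ly6g was below 0.1 FPKM throughout. The part of cell composition in the levels of the selenium-binding proteins was not tested.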

How the data were processed

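Liver RNA was made into strand-preserving libraries, per the labels' protocols. FPKM values came as 1 table deposited by the authors. HISAT2, HTSeq, DESeq2, StringTie and mm10 appear in the submitters' processing notes with no version or role, and use of strand in counting is not stated. At most 38.1% of low values in a library equalled whole reads (tolerance 0.02), too few to recover counts, so no count model was fitted.

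The 13250 genes averaging at least 0.5 FPKM were fitted as log2(FPKM + 0.5) with limma 3.58.1 in R 4.3.3, with eBayes with trend, no block, two-sided tests and Benjamini-Hochberg adjustment at 0.05 over all of them. The fit was tested on simulated data. Fold changes on this scale understate those of low genes. Sums and ratios of the copies were formed per library. Members and lists were chosen with earlier results of these data known. Named genes are list members past the threshold, otherwise the 2 with the smallest p, neighbours within 300 kb and the 5 most alike. One gene that this rule names is not reported here. Cth, Sqor, Hsd3b5, Elovl3, Cyp2c40, Ppara, Selenop, Gpx1, Hao2 and Cps1 were added after their values were seen. Sequences were compared with Biopython 1.88, with promoters from the RefSeq table of GRCm38.p6, and all 24034 gene identifiers matched GENCODE M21. Alternatives were pseudocounts, filters, scalings, eBayes settings, array weights (statmod 1.5.0), a replicate block and leaving out each library.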

Additional observations from a re-analysis of the deposited data

How the results depend on the processing

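The differences of Selenbp2, of Selenbp1, of the sum and of the ratio between HO and WT kept their direction under every pseudocount, scaling, block and left-out library, and moved by less than 1 pooled SD. Leaving out each library in turn gave log2 changes of 3.46 to 4.22 for Selenbp2, -0.55 to -0.22 for Selenbp1, 1.81 to 2.12 for the sum and 3.81 to 4.68 for the ratio. As the groups did not overlap, leaving out a library could not turn these directions. With the replicate number as a block the log2 changes were the same by construction, at 3.73, -0.41, 1.998 and 4.14.

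The counts of genes past the threshold were less steady. Against 151 over all genes, they were 100 with a pseudocount of 0.1, 24 with no filter, where 24034 genes were tested, 77 for eBayes without trend, 941 with array weights and 25 with the replicate block. Against 11 in the related lists, they were 0 with no filter, 37 with array weights and 2 with the replicate block. With no filter, 57 of 152 list genes had an unadjusted limma p under 0.05, against 3723 of all 24034. Leaving out each library gave 6 to 262 over all genes and 0 to 23 in the lists. The counts of 0 came without WT replicate 1 and without WT replicate 2. There, 48 and 49 of 132 list genes had an unadjusted limma p under 0.05, against 1961 and 1976 of all 13250. Same-numbered HO and WT libraries had correlations of 0.07, -0.03 and 0.01 between their deviations from the group means, so the numbers were not read as pairs. The cause of the other shifts was not tested. An effect of depth was not tested either. Both selenium-binding protein genes had about 1868 read equivalents or more in every library.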
